A study of Mus musculus with 2 samples.

Results

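The genes described here mark the mesenchyme that surrounds the embryonic forebrain: the transcription factors Foxc1, Foxc2, Twist1 and Prrx1, the matrix proteins Dcn, Lum and Postn, the crosslinking enzyme Lox, and the transporter Slc6a13. They are a fixed list of 9 genes among the 55536 gene identifiers of the GENCODE M21 tables, matched by gene identifier and symbol, and all 9 were present. Expression was measured by polyA-plus RNA-seq in whole forebrain of B6NCrl mouse embryos at embryonic day 12.5, male and female together. There were 2 pooled samples, called pool 1 (120 embryos) and pool 2 (68 embryos), each with 10 ng of starting RNA, ERCC spike-in RNAs and oligo-dT priming. Both belong to the same group, and no treatment, genotype or second tissue was compared. The questions that can be asked are therefore how high each gene was, how far the pools differed, and which transcripts carried the signal.

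The meninges are the connective tissue layers around the brain. Over the forebrain they form largely from cranial neural crest cells, which also give rise to facial dermis and the frontal bones, while mesoderm supplies other head mesenchyme. Forkhead, basic helix-loop-helix and paired-type homeodomain factors act in these cells before and while they lay down a matrix of fibrillar collagen and small leucine-rich proteoglycans. The meninges also carry transporters for small molecules and secrete signals, retinoic acid and Cxcl12 among them, that reach the cortex below.

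Gene counts were 33373776 in pool 1 and 34406601 in pool 2, and the biological coefficient of variation between the pools was 8.502% over 19063 genes whose mean count reached 10. Marker lists of the labelled tissue were read. All 8 telencephalon, all 8 radial glia and all 8 postmitotic neuron markers reached a TPM of 1 in both pools. So did all 8 endothelium markers, all 8 blood markers and 58.9% of protein-coding genes, so this count does not identify the tissue. TPM is an abundance per transcript length, scaled to a fixed total in each library, and is the only scale on which levels of different genes are compared here. Every ± is an SD over n = 2 pools. With 2 pools of 1 group, the smallest exact two-sided sign-flip permutation p is 0.5, so no test of a difference was run.

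All 9 genes reached a TPM of 1 in both pools, against 58.9% of the 22028 protein-coding genes (those that did are called detected here). Their mean levels ran from 62.7 TPM (Lum) to 1.46 TPM (Slc6a13), and together they held 128 (pool 1) and 160 TPM (pool 2). In whole tissue, fewer cells of a type and less RNA per cell cannot be told apart, so these levels do not give the amount of mesenchyme. In order of mean level the genes were Lum, Prrx1, Dcn, Postn, Lox, Twist1, Foxc2, Foxc1 and Slc6a13. The ranges of the pools overlapped for 3 neighbouring pairs in that order, Prrx1 with Dcn, Postn with Lox, and Foxc2 with Foxc1, and were separate for the other 5.

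**Figure D1:**
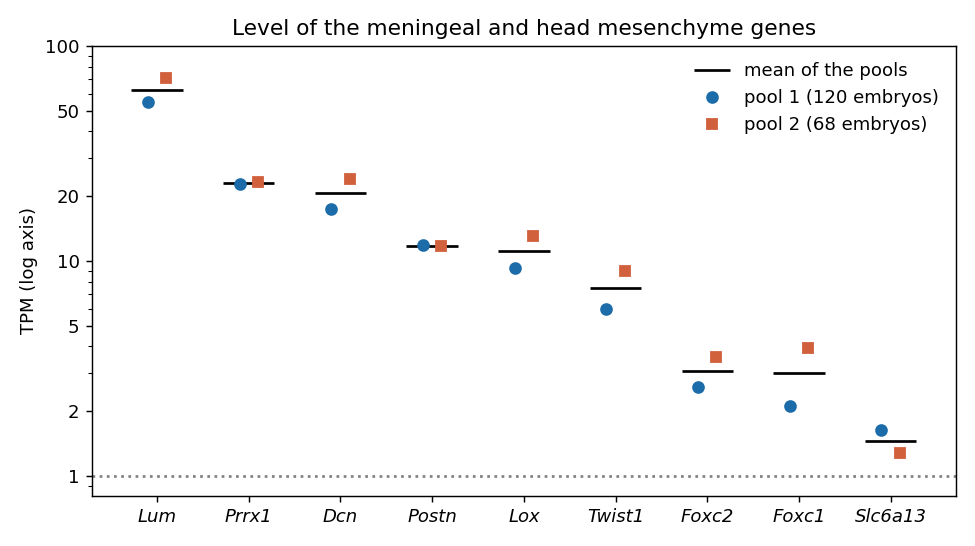
Level of each gene in TPM on a log axis, with genes ordered by mean. Circles are pool 1, squares are pool 2, bars are the mean of the pools, and the dotted line marks a TPM of 1. Lum stands at 54.7 and 70.7 TPM, Slc6a13 at 1.64 and 1.27 TPM, and the Prrx1 and Postn points of the pools nearly coincide.

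Foxc1 (ENSMUSG00000050295.4, chr13:31806633-31812476, plus strand, GRCm38) encodes a forkhead factor needed in mice for normal meninges and skull vault. Its only annotated transcript has 1 exon. It stood at 2.11 (pool 1) and 3.93 TPM (pool 2; mean 3.02 ± 1.29 TPM), from 257 and 499 counts. Pool 2 was thus higher, and after scaling by edgeR's trimmed mean of M-values (TMM) the ratio was 1.84-fold (95% counting interval 1.58 to 2.15). This was the widest gap between the pools among the 9 genes, and 3.65% of the 19063 genes were higher in pool 2 by more.

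Foxc2 (ENSMUSG00000046714.7, chr8:121116171-121118895, plus strand), the paralog of Foxc1, acts in head mesenchyme and in lymphatic and vascular development, and it too has a single exon. It was measured at 2.58 (pool 1) and 3.58 TPM (pool 2; mean 3.08 ± 0.707 TPM), from 144 and 208 counts. The ratio was 1.37-fold towards pool 2, with a counting interval of 1.10 to 1.71. Within each pool the paralogs lay close: Foxc1 was at 0.818 of the level of Foxc2 in pool 1 and 1.10 in pool 2, so which of them was higher changed with the pool. Their mean levels stood above 11.0% (Foxc1) and 11.3% (Foxc2) of the detected protein-coding genes.

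Both Foxc genes lie in forkhead clusters. Next to Foxc1, Foxf2 lay 175.2 kb to the left and stood at 2.62 and 3.57 TPM, close to the level of Foxc1, while Foxq1 of the same cluster was at 1.58 and 1.27 TPM. Next to Foxc2, Foxl1 lay 9.045 kb to the right and had 8 and 16 counts (0.14 and 0.28 TPM), and Foxf1 of that cluster had 3 and 41 counts (0.06 and 0.80 TPM). The non-forkhead neighbours Gmds (24.5 and 24.6 TPM) and Mthfsd (42.9 and 47.1 TPM) were higher than either Foxc gene. A long annotated gene on the same strand, Gm20388, spans Foxc2 and was given 355.5 counts in pool 1 and 0.52 in pool 2. The counts of Foxc2 itself were whole numbers in both pools.

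Because forkhead genes share a conserved DNA-binding domain, the whole transcript sequences of the paralogs were compared for the longest identical run. Such a run bears on how reads could be split between them. Foxc1 and Foxc2 share a run of 53 bases within the coding region of both (from base 1014 of Foxc1-201 and base 862 of Foxc2-201), shown 5′ to 3′ on the transcript strand with all bases in capitals as identical.
Foxc1 and Foxc2: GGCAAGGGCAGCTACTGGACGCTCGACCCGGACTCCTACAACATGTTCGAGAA
Twist1 and its paralog Twist2 share at most 23 bases, and Prrx1 and Prrx2 share 19. All 9 genes had expected counts that were whole to the 2 decimals deposited, in both pools. Fractional counts, as for Twist2 (127.35 and 193.85), arise where reads that match several genes are shared out.

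Twist1 (ENSMUSG00000035799.6, chr12:33957671-33959829, plus strand) encodes a basic helix-loop-helix factor of cranial mesenchyme that is required for cranial neural tube closure and for keeping skull sutures open. Levels were 5.95 (pool 1) and 8.96 TPM (pool 2; mean 7.46 ± 2.13 TPM), from 193 and 303 counts. Pool 2 was higher by 1.49-fold (counting interval 1.24 to 1.79), second to Foxc1 among the 9 genes. Twist2, which overlaps Twist1 in function in mesenchyme and dermis, was a little lower than Twist1 in each pool, at 4.80 and 6.86 TPM. Of the genes beside Twist1, Hdac9 stood at 7.23 and 9.03 TPM, while Ferd3l, another basic helix-loop-helix gene, had 1 and 7 counts.

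Prrx1 (ENSMUSG00000026586.16, chr1:163245119-163313710, minus strand) encodes a paired-related homeodomain protein of limb and craniofacial mesenchyme. Of the 4 factors it was the highest, with 22.9 (pool 1) and 23.3 TPM (pool 2; mean 23.1 ± 0.269 TPM), from 2108 and 2269 counts. The pools differed by 1.02-fold, and the counting interval, 0.962 to 1.08, included equality. As a result the ratio of Prrx1 to Twist1 was 3.85 in pool 1 and 2.60 in pool 2. Its paralog Prrx2 was measured at 12.5 and 15.5 TPM. Within the span of Prrx1 lie Gm26523 (132 and 149 counts) and Gm37644 (33 and 66 counts) on the same strand, and the antisense Gm20471 (10 and 16 counts). These are small beside the counts of Prrx1, and whether the counting used strand is not given.

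Prrx1 is the only one of the 4 factors with more than 1 annotated transcript. Alternative splicing of this gene is known to give proteins that share the homeodomain and differ at the carboxy end. Prrx1-201, with 735 coding bases, took 28.5% of the gene's TPM in pool 1 and 32.9% in pool 2. Prrx1-202, with 651 coding bases, took 19.1% and 16.5%, Prrx1-204 (600 coding bases) 26.1% and 26.2%, and the noncoding Prrx1-205 24.6% and 23.1%. Coding transcripts together held 73.6% in pool 1 and 75.7% in pool 2. The order of these 4 transcripts by TPM was the same in both pools.

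Prrx1-202 holds an exon that Prrx1-201 lacks, exon 4 of 5, 72 bases long, at chr1:163253977-163254048 on the minus strand of GRCm38. It carries the end of the reading frame of Prrx1-202, and is printed because it distinguishes this transcript from Prrx1-201. The 2 transcripts, annotated at 4986 (Prrx1-202) and 4952 bases (Prrx1-201), also differ outside this exon. The sequence is from the GENCODE M21 transcript, with the coding bases of the exon in capitals (55 of them, stop codon included), and in lower case its noncoding bases and 10 bases of the spliced transcript on each side.
Prrx1-202 exon 4: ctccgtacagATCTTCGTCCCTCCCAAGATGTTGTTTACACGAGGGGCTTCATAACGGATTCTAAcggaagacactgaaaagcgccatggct
Prrx1-205 also contains this exon. Neither Prrx1-201 nor Prrx1-204 does.

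Lum (ENSMUSG00000036446.5, chr10:97565128-97572703, plus strand) encodes lumican, a small leucine-rich proteoglycan that binds collagen fibrils. Among the 9 genes it was the highest, at 54.7 (pool 1) and 70.7 TPM (pool 2; mean 62.7 ± 11.3 TPM), from 2727 and 3672 counts, and it stood above 78.3% of the detected protein-coding genes. The ratio was 1.28-fold towards pool 2 (counting interval 1.22 to 1.34). Lum has 1 annotated transcript, of 3 exons.

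Dcn (ENSMUSG00000019929.16, chr10:97479609-97518143, plus strand) encodes decorin, a proteoglycan of the same family that also binds growth factors such as TGF-beta. It was at 17.5 (pool 1) and 24.0 TPM (pool 2; mean 20.7 ± 4.57 TPM), from 618 and 875 counts. The ratio was 1.34-fold towards pool 2 (counting interval 1.21 to 1.49), and Dcn-201 held 99.8% of its TPM in pool 1 and 98.4% in pool 2. Dcn and Lum are neighbours on the same strand, 46.98 kb apart. The level of Lum was 3.13 times that of Dcn in pool 1 and 2.95 times in pool 2, so the pair kept nearly the same proportion while both were higher in pool 2.

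The next proteoglycan gene along that cluster, Kera, lies 34.18 kb beyond Lum and had only 3 and 10 counts, or 0.06 and 0.21 TPM. Keratocan, its product, is best known from the cornea. Of a list of 10 further small leucine-rich proteoglycan genes, 7 reached a TPM of 1 in both pools. The highest were Bgn (16.8 and 16.7 TPM), the biglycan gene and the closest relative of decorin, and Ogn (8.29 and 10.9 TPM). In mean level both were below Dcn and Lum. Of the 9 with enough counts for the comparison of pools, 6 were higher in pool 2, against 50.6% of all genes. Ogn was among them, while Bgn was not.

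Postn (ENSMUSG00000027750.16, chr3:54361109-54391037, plus strand) encodes periostin, a secreted matricellular protein of periosteum, valves and other collagen-rich tissue that takes part in collagen crosslinking. Its level was 11.8 TPM in both pools (11.81 and 11.76 TPM, from 688 and 776 counts), and the mean was 11.79 ± 0.0354 TPM. On counts the ratio was 1.07-fold towards pool 2 with a counting interval of 0.965 to 1.19, and on TPM it was 0.996-fold, so the difference was within counting error and changed direction with the scale. The paralog Tgfbi, which carries the same fasciclin-type repeats, stood at 16.7 and 18.8 TPM.

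The carboxy-terminal part of periostin is known to be alternatively spliced, and 2 cassette exons distinguish the annotated full coding transcripts. Postn-203 holds an 81-base exon and lacks an 84-base one, and Postn-201 holds the 84-base exon and lacks the 81-base one. Postn-203 took 53.1% of the gene's TPM in pool 1 and 56.0% in pool 2 (54.6% ± 2.08). Postn-201 took 29.9% and 31.8% (30.8% ± 1.35). The transcript with both exons, Postn-202, and the transcript with neither, Postn-204, were estimated at 0 in both pools. Postn-202 is annotated at 2670 bases, against 3205 for Postn-203 and 3189 for Postn-201, so it differs from them outside these exons too. Whether its estimate of 0 rests on the exons was not tested.

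The 2 exons are printed because Postn-203 and Postn-201 each hold 1 of them and lack the other. Both keep the reading frame (27 and 28 codons). They lie on the plus strand of GRCm38 at chr3:54380412-54380492 (exon 17 of 22 in Postn-203) and chr3:54385671-54385754 (exon 20 of 22 in Postn-201). In the GENCODE M21 transcript sequences, the exon is in capitals with 10 bases of the neighbouring exons in lower case.
Postn-203 exon 17: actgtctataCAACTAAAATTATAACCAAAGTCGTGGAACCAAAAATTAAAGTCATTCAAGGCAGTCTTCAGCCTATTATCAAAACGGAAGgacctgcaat
Postn-201 exon 20: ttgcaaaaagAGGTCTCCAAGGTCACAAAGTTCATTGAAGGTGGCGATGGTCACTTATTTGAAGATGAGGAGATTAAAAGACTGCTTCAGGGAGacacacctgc
Short or unspliced forms made up the rest. Postn-206, a fragment of 655 bases, took 11.9% of the TPM in pool 1 and 1.19% in pool 2 from 16.5 and 1.67 expected counts, and Postn-209 took 2.62% and 7.14%. Retained intron transcripts summed to 5.17% and 11.0%.

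Lox (ENSMUSG00000024529.14, chr18:52516067-52529867, minus strand) encodes lysyl oxidase, which oxidises lysines of collagen and elastin so that the fibres crosslink. It was measured at 9.23 (pool 1) and 13.03 TPM (pool 2; mean 11.1 ± 2.69 TPM), from 903 and 1314 counts. Pool 2 was higher by 1.38-fold, with a counting interval of 1.27 to 1.505. Of the other 4 genes of the family, Loxl1 (7.07 and 8.54 TPM), Loxl2 (7.38 and 7.95 TPM) and Loxl3 (4.87 and 6.24 TPM) were each below Lox in both pools. Loxl4 was at 0.19 and 0.27 TPM. All 4 were higher in pool 2, against 50.6% of all genes. Of them 1, Loxl4, was higher by over 25% on 15 and 22 counts, against 15.7% of all genes.

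Lox has 2 annotated coding transcripts with the same 1233 coding bases, so the choice between them does not alter the protein. Lox-201 took 88.1% of the gene's TPM in pool 1 and 69.4% in pool 2 in release M21, but 28.3% and 22.7% in release M4. In M4 this transcript is 3604 bases long, and in M21 it is 4741 bases long. The counts of the whole gene stayed at 905 and 1316 in M4, so the estimate that moved was the split between the transcripts. An antisense gene at the locus, AC161119.1, had 0 counts in both pools.

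A list of 11 genes that work beside Lox and Postn in the matrix was also read. Of these, 10 reached a TPM of 1 in both pools. The highest were Fn1 (72.7 and 75.6 TPM), the fibronectin gene, Efemp2 (31.4 and 32.8 TPM), whose product helps to bring lysyl oxidase to elastin, and Bmp1 (19.7 and 23.3 TPM), the protease that releases active Lox from its precursor. Tll1, a relative of Bmp1, was lowest at 0.73 and 1.13 TPM. In the comparison of pools 8 of 11 were higher in pool 2, against 50.6% of all genes. Over 25% higher there were 3 of 11, against 15.7% of all genes.

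Slc6a13 (ENSMUSG00000030108.14, chr6:121300227-121337733, plus strand) encodes GAT2, a GABA and taurine transporter found in leptomeninges, liver and kidney in the adult. It was the lowest of the 9 genes, at 1.64 (pool 1) and 1.27 TPM (pool 2; mean 1.46 ± 0.262 TPM), from 54 and 57 counts. A count of 3 would give 0.0911 (pool 1) and 0.0668 TPM (pool 2), so the gene was well above this floor. On counts the ratio was 1.00-fold with a wide counting interval, 0.678 to 1.48, while on TPM pool 2 was 0.774 of pool 1. The scales part because the effective length estimated for the gene was 1555 bases in pool 1 and 2023 bases in pool 2.

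That length follows the transcript estimates. Slc6a13-201, the full coding transcript, took 53.0% of the TPM in pool 1 and 92.9% in pool 2, and retained intron transcripts took 47.0% and 7.09%. In coding TPM the order of the pools was the other way round from the gene total, 0.87 in pool 1 and 1.18 in pool 2. These shares rest on 39.2 and 55.9 expected counts of Slc6a13-201, and on 11.2 and 0 of the retained intron transcript Slc6a13-202.

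Of related transporter genes, Slc6a11, which encodes the GABA transporter GAT3, stood at 1.48 and 0.95 TPM, close to the level of Slc6a13. Slc6a12, the betaine and GABA transporter gene 5.343 kb from Slc6a13 on the same strand, had 0 and 3 counts. Slc6a13 and Slc6a12 share a run of 53 coding bases, shown 5′ to 3′ with identical bases in capitals because it is as long as the run shared by the Foxc pair.
Slc6a13 and Slc6a12: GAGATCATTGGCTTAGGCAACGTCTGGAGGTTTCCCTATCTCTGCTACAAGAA
Of the list of 10 transporter genes of leptomeninges and choroid plexus, Slc13a3 stood at 2.61 and 1.63 TPM. Slc22a6 was at 0.68 and 0.55 TPM, Slc22a8 at 0.31 and 0.22 TPM, and Slc22a2 had no counts. Of the 6 with enough counts for the comparison of pools, 0 were higher in pool 2, against 50.6% of all genes.

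Between the pools the 9 genes leaned one way. All 9 were higher in pool 2 on TMM-normalised counts by any amount, where 50.6% of the 19063 genes were, but for Slc6a13 the lead was 1.00-fold, and on TPM Slc6a13 and Postn were not higher in pool 2. More than 25% higher in pool 2 were 6 of 9 (Foxc1, Twist1, Lox, Foxc2, Dcn and Lum), against 15.7% of all genes and 9.9% of protein-coding genes. The counting intervals of 2 of them, Foxc1 and Lox, lay wholly beyond that ratio, and those of the other 4 included it. None was over 25% higher in pool 1, against 7.84% of all genes. Over 1.5-fold, the count was 1 of 9 (Foxc1), against 7.96%. The median log2 ratio of pool 1 to pool 2 was -0.43 over the 9 genes and -0.0026 over all genes.

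**Figure D2:**
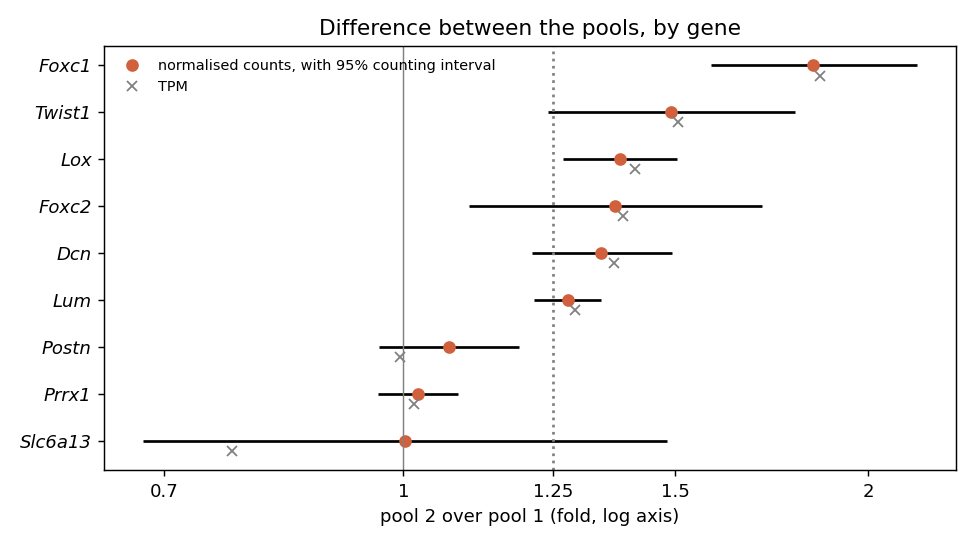
Ratio of pool 2 to pool 1 for each gene, on a log axis. Circles are ratios of TMM-normalised counts with 95% counting intervals, crosses are ratios of TPM, and lines mark equality (solid) and a ratio 25% above it (dotted). The circles of 6 genes lie beyond the dotted line, from Lum at 1.28 to Foxc1 at 1.84, and those of Postn, Prrx1 and Slc6a13 lie at 1.07, 1.02 and 1.00.

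By role, the 4 factors summed to 33.5 (pool 1) and 39.8 TPM (pool 2), and the 4 matrix and crosslinking genes to 93.2 and 119 TPM. Neither role was uniform on TMM-normalised counts. Prrx1 among the factors and Postn among the matrix genes stayed within counting error of equality, while the other 3 of each role were over 25% higher in pool 2. Scaling by the spike-in totals in place of TMM moved the median of all genes to -0.165 and put 25.7% of all genes over 25% higher in pool 2. The same 6 of the 9 genes were over 25% higher in pool 2 under that scaling. Prrx1 and Postn then had log2 ratios of pool 1 to pool 2 of -0.194 and -0.261, beyond counting error of equality. Their closeness to equality thus depended on the scaling.

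Wider lists of the same tissue were read beside the 9 genes and beside all genes (50.6% higher in pool 2, 15.7% by over 25%). Of 20 further transcription factors of head mesenchyme and neural crest, 18 reached a TPM of 1 in both pools, 19 were higher in pool 2, and 12 were over 25% higher there, with a median log2 ratio of -0.45. Zeb2 (58.0 and 49.5 TPM) was the exception in direction. Msx1 (31.4 and 53.2 TPM), Zeb1 (41.6 and 42.1 TPM) and Alx1 (22.1 and 24.5 TPM), factors known from the cranial mesenchyme, were the next highest. Zeb2 is also a neural gene, and the part of neural cells in any of these levels was not tested. At the low end Foxf1 and Meox1 (0.13 and 0.47 TPM), both better known from trunk mesoderm, were under a TPM of 1 in both pools.

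Among 18 genes of fibrillar connective tissue matrix, all 18 reached a TPM of 1 in both pools. Higher in pool 2 were 15, against 50.6% of all genes (median log2 ratio -0.29). Over 25% higher there were 8 of 18, against 15.7% of all genes and 9.9% of protein-coding genes. The collagen chaperone gene Serpinh1 led at 332 and 393 TPM, followed by Col3a1 (287 and 315 TPM), Sparc (257 and 309 TPM) and Col1a1 (162 and 209 TPM). At 62.7 TPM on average, Lum was below these 4 genes. Eln, the elastin gene, was lowest at 3.07 and 2.93 TPM.

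Genes reported from the meningeal layers were closer to all genes in median log2 ratio. Of 18 listed, 17 reached a TPM of 1 in both pools. In the comparison of pools 12 of 18 were higher in pool 2, against 50.6% of all genes. Over 25% higher there were 4 of 18, against 15.7% of all genes and 9.9% of protein-coding genes. Over 25% higher in pool 1 was 1 gene (Ptgds, on 16 and 8 counts), against 7.84% of all genes. The median log2 ratio was -0.10. The highest members were Crabp2, a retinoic acid binding protein gene (192 TPM in both pools), Igf2 (73.9 and 95.9 TPM), Col18a1 (61.6 and 65.1 TPM) and the chemokine gene Cxcl12 (44.0 and 49.7 TPM). The difference in median between this list, the head mesenchyme factors and the 9 genes was not tested.

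**Figure D3:**
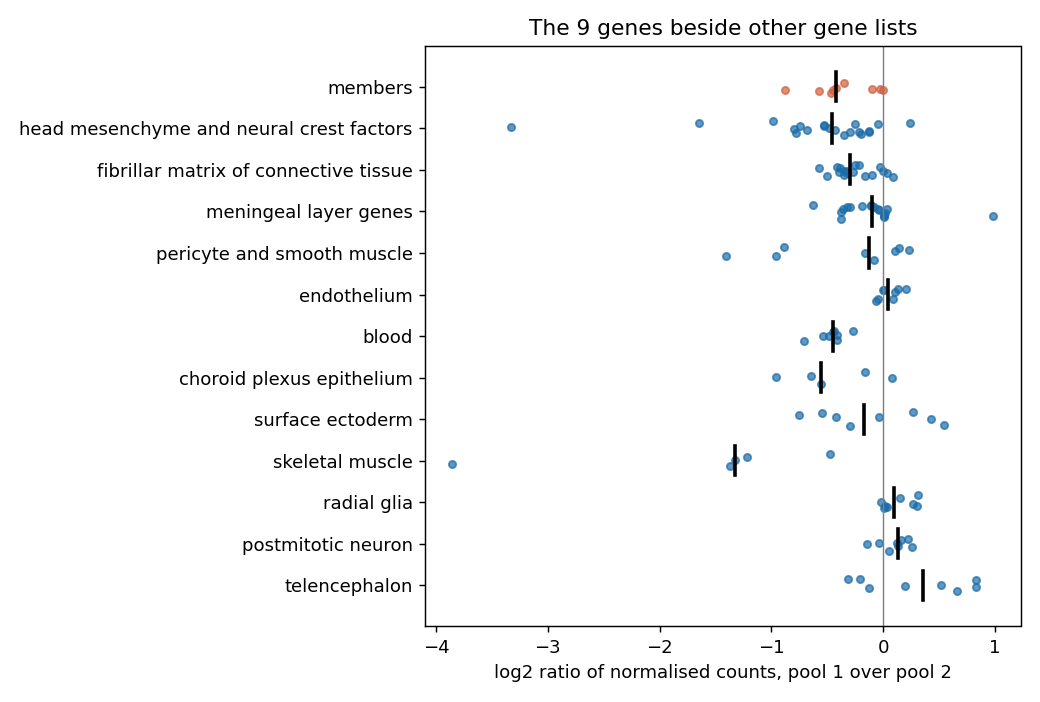
Log2 ratio of pool 1 to pool 2 of TMM-normalised counts for each gene of a list whose mean count reached 10. Points are genes, black bars are list medians, and the vertical line marks equality. The 9 genes (top row, members) have a median of -0.43, the head mesenchyme factors -0.45, the blood markers -0.44 and the telencephalon markers 0.36.

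Some markers of other cell types in the tissue were also higher in pool 2. Of all genes, 50.6% were higher there, 15.7% by over 25% (9.9% of protein-coding genes). Blood markers were higher in pool 2 for 8 of 8 genes, 7 of them by over 25%, and summed to 11840 (pool 1) and 15870 TPM (pool 2). Choroid plexus markers were higher in pool 2 for 4 of 5 genes (summed 96.6 and 139.8 TPM), with Ttr at 42.0 and 82.5 TPM. Skeletal muscle markers were low, with 2 of 8 reaching a TPM of 1 in both pools, and summed to 7.69 and 15.4 TPM, all 5 with enough counts being higher in pool 2. Myod1 had 0 counts in pool 1 and 10 in pool 2.

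Vessel markers, read beside all genes (50.6% higher in pool 2, 15.7% by over 25%), were split. Endothelial markers, 8 of 8 reaching a TPM of 1, summed to 106.5 and 105.2 TPM, with 3 of 8 higher in pool 2 and 0 by over 25%. Pericyte and smooth muscle markers summed to 51.3 and 74.2 TPM, with 5 of 8 higher in pool 2 and 3 by over 25%. Those 3 were the smooth muscle genes Acta2 (17.7 and 34.3 TPM), Tagln (8.10 and 13.04 TPM) and Myh11 (0.12 and 0.34 TPM). Pdgfrb, which head mesenchyme also expresses, was at 12.9 and 14.6 TPM. The pericyte genes were mixed. Rgs5 (4.02 and 3.78 TPM), Cspg4 (2.95 and 2.33 TPM) and Abcc9 (1.61 and 1.48 TPM) were higher in pool 1. Kcnj8 (3.86 and 4.31 TPM) was higher in pool 2. Markers of cartilage and bone summed to 103.3 and 109.4 TPM, most of it Col2a1 (87.5 and 95.7 TPM), which is also made outside cartilage at this stage. Bglap, an osteoblast gene, had 0 counts in pool 1 and 1 in pool 2.

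Surface ectoderm markers summed to 53.4 (pool 1) and 48.3 TPM (pool 2), with 5 of 8 higher in pool 2, against 50.6% of all genes. Macrophage markers summed to 39.5 and 43.9 TPM. Telencephalon markers were lower in pool 2 in sum (722 and 619 TPM), but they were mixed by gene. Of the 8, 4 were over 25% higher in pool 1, against 7.84% of all genes (Dlx1, Dlx2, Nkx2-1 and Gsx2, genes of the ventral telencephalon). Another 3 were higher in pool 2 (Lhx2 at 153 and 176 TPM, Emx1 at 55.9 and 69.7 TPM, and Emx2 at 46.1 and 54.3 TPM). Radial glia markers were higher in pool 2 for 1 of 8 genes (summed 2589 and 2412 TPM), and postmitotic neuron markers for 2 of 8 (1894 and 1749 TPM). In either list 0 were over 25% higher in a pool, against 15.7% (pool 2) and 7.84% (pool 1) of all genes. No list of markers was at 0 throughout in either pool. The part of these cell types in the difference of the 9 genes between the pools was not tested.

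The level given to a gene also depended on the annotation release. Under release M4 Foxc1 was at 3.30 and 6.13 TPM (4.72 ± 2.00 TPM), from 256 and 496 counts, since the effective length of its transcript was 3854 bases there and 5745 bases in M21. Its M21 level was 64.1% of the M4 level. For Lum the share was 79.8% and for Lox 85.9%, while for Dcn the M21 level was 103% of that in M4 and for the other 5 genes it was between 94.1% and 95.1%. With the M4 tables Foxc1 stood above Foxc2 (3.25 ± 0.742 TPM) in mean level, so the order of this pair changed with the annotation as well as with the pool.

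**Figure D4:**
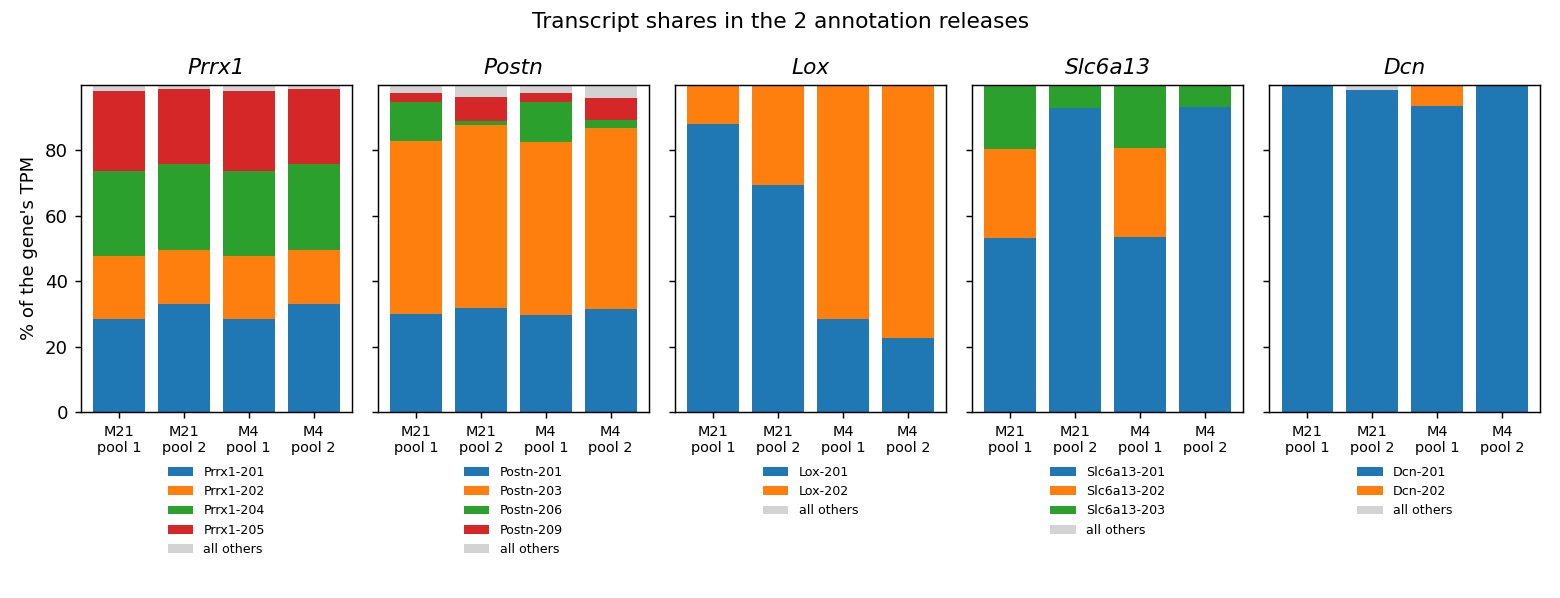
Share of each gene's TPM by transcript (stacked bars, in %), for the 5 genes with more than 1 annotated transcript, in each pool and annotation release (M21 and M4). The leading transcripts of Prrx1 (Prrx1-201) and Postn (Postn-203) are the same in all 4 bars, Lox-201 takes 88.1% and 69.4% under M21 and 28.3% and 22.7% under M4, and Slc6a13-201 takes 53.0% in pool 1 and 92.9% in pool 2.

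The start regions of the genes were read for what members with unlike differences between the pools have in sequence. RefSeq start sites on GRCm38.p6, matched by symbol, were read for 5 of the 9 genes. Lox was left out of this search. The sites gave 8 windows of 250 bases before a start (1 for each of Foxc1, Twist1 and Prrx1, more for Postn and Slc6a13). The motifs searched, on both strands, were TATAA (in 22.8% of all 32851 such windows), the E-box CANNTG bound by Twist-type factors (66.2%), CCAAT (33.9%) and the forkhead core GTAAACA (3.17%). Windows of Foxc1 and Twist1, with the widest gaps between the pools, and 1 of the 2 of Postn, with a near-equal level, are printed. They run 5′ to 3′ in the direction of the gene, with matches in capitals. They are chr13:31806396-31806645 (Foxc1), chr12:33957421-33957670 (Twist1) and chr3:54360857-54361106 (Postn), all on the plus strand, and the RefSeq start of Foxc1 lies 13 bases inside the GENCODE gene.
Foxc1: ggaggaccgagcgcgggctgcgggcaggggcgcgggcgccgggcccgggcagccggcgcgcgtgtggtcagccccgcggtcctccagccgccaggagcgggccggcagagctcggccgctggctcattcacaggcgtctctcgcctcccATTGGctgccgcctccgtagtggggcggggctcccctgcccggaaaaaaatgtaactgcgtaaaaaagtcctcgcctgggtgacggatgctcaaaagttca
Twist1: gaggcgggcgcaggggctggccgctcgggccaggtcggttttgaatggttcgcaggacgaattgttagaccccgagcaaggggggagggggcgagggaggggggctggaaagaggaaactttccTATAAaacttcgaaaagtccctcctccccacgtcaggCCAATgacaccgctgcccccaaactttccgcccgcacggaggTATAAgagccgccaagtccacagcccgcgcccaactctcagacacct
Postn: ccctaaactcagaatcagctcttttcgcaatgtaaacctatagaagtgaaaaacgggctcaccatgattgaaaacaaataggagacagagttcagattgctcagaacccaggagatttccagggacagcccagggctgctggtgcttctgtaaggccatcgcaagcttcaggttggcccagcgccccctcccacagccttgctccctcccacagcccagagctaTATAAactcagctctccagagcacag
The Foxc1 window has 70.8% GC and 29 CpG, and the Twist1 window 62.4% and 18, against medians of 52.4% and 6 over all windows. In the printed Postn window GC was 52% with 4 CpG, in the other Postn window 40.4% with 3, and in that of Prrx1 47.6% with 4. TATAA matches lay 26 bases before the Postn start of the printed window and 47 and 126 bases before that of Twist1. The other Postn window had no match to any of the motifs. CCAAT matches lay 89 bases before the Twist1 start and, on the other strand, 101 bases before that of Foxc1. E-box matches were found in 2 windows of Slc6a13 and in none of the other 6, and GTAAACA in none of the 8, which says only that these letters are not in these windows. A match describes the sequence and is not evidence of binding.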

How the data were processed

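PolyA-plus RNA of 2 forebrain pools, which the labels call biological replicates, was read from gene and transcript tables for mm10 (8 tables, GENCODE releases M21 and M4). The deposited expected counts give reads per gene and per transcript as estimates without normalisation, per the file headers. The deposited TPM values are scaled to 1000000 per library. The deposited posterior mean TPM was treated as a score and used only as an alternative. The column layout is that of RSEM, per the file headers, but no aligner, quantifier or strand setting is named (not given in the sources used here), so overlapping and antisense genes are uncertain. Numbered entries that name no gene held 5.74e-05% and 9.00e-05% of counts and were left out.

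From these, expected counts were rounded to whole numbers. Genes whose mean count reached 10 were scaled with edgeR 4.0.16 (TMM), which also gave the coefficient of variation from an intercept-only model. DESeq2 1.42.0 size factors were an alternative. Ratios used a prior count of 1. Intervals are exact binomial intervals of the count ratio at 95%, and like the floor of 3 counts they hold counting error alone, because reads amplified by PCR and lacking molecular identifiers are not separate molecules. Plots were drawn with matplotlib 3.10.9, and tables handled with pandas 2.3.3, numpy 2.4.6 and scipy 1.17.1 in Python 3.11.15 and with R 4.3.3. Steps were tested on simulated data.

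All 55536 gene identifiers matched a GENCODE M21 symbol. The 9 genes and the 20 other lists were chosen with earlier results of these data known. Genes named beside the 9 are members of lists of 10 or fewer, the 4 highest and 2 lowest by mean TPM of longer lists, paralogs, nearest protein-coding neighbours and overlapping genes. Transcripts named hold at least 5% of the gene's TPM in a pool, and others are named only for an exon or for their place beside such a transcript. The alternatives tried were the M4 tables, posterior mean TPM, other scalings, no count filter, a larger prior count, other thresholds and leaving out a pool. Values of 1 further gene that this rule allows were left out and are not reported here.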

Additional observations from a re-analysis of the deposited data

How the results depend on the processing

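All alternatives bear on a description of 2 pools, since no test was run. The count of 6 genes over 25% higher in pool 2 was also 6 with DESeq2 size factors, spike-in totals, total gene counts, TPM + 1, the M4 tables, no count filter and a prior count of 5, and fell to 1 at 1.5-fold. The median log2 ratio of the 9 genes, -0.43 as reported, was -0.59 with spike-in totals and -0.36 as a ratio of TPM + 1, and between -0.46 and -0.42 with the other 5 settings. At a threshold of TPM 5 in both pools, 6 of 9 genes were detected. Leaving out a pool could not lower the count of 9 of 9 at a TPM of 1, because that count already required both pools. On the TPM + 1 scale the log2 ratios of Postn (0.0056) and Slc6a13 (0.22) lay on the side of pool 1. Of 36 log2 ratios of single genes under alternatives 5 moved by more than the counting interval allows, all with spike-in totals. Mean TPM moved by over 1 SD for 4 of 9 genes with the M4 tables and for 2 of 9 with posterior means. Leaving out 1 of 2 pools cannot move a mean by over 1 SD, so it was no check of these levels. The share of Lox-201 moved from 78.7% to 25.5% with the M4 tables. Leaving out a pool gives no ratio between pools. No paired analysis was possible because the labels give 1 group. Depth limits Slc6a13 most, at 54 and 57 counts.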
